A study of Mus musculus with 4 samples.

Results

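The genes described here encode the machinery of oxidative phosphorylation in the mouse cerebral cortex. They were chosen by symbol alone, as the protein-coding mitochondrial genes whose symbols begin with mt-Nd, mt-Co, mt-Cyb or mt-Atp and the nuclear genes named Nduf, Uqcr, Atp5, Sdha to Sdhd or Cox followed by a digit from 4 to 8, without pseudogenes. The rule found 109 of the 32285 genes counted. Of these, 12 lie on the mitochondrial chromosome and 97 on 19 nuclear chromosomes. Cytochrome b is written mt-Cytb in the gene table and falls outside the rule, so its values are given beside the 12. The mitochondrial members comprise 7 subunits of complex I, 3 of complex IV and 2 of complex V. Among the nuclear members are 36 subunits and 8 assembly factors of complex I, 4 subunits and 4 assembly factors of complex II, 8 genes of complex III, 20 of complex IV and 17 of complex V.

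Nuclei came from the right hemicortex of wild-type C57BL/6J mice killed at postnatal day (PND) 90, after daily saline (0 mg/kg) or risperidone, a dopamine and serotonin receptor antagonist used as an antipsychotic, at 4 mg/kg for 21 days from PND 22. Each condition was 1 pool of tissue from 5 male and 5 female mice, from which sorted nuclei were run on 2 lanes, so the groups are saline lane 1, saline lane 2, risperidone lane 1 and risperidone lane 2. The drug was diluted into saline from a stock in DMSO. Both groups then went untreated until they were killed. With 1 pool per condition there is no test between conditions and no p-value, and the spread between lanes is technical.

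The lanes held 29536, 29986, 25983 and 23450 nuclei, and the risperidone lanes were deeper, with a median of 5648 and 7765.5 unique molecular identifiers (UMIs) per nucleus against 3297 and 4049 in saline. The lowest UMI count of a listed nucleus was 1364 and 1630 in saline and 500 in both risperidone lanes, and any pair of lanes shared 160 to 221 barcodes. After filtering, between 21099 and 26385 nuclei per lane were grouped into 29 clusters without using the member genes, and 23 of these were given to 12 classes from marker genes. Every class name below stands for "like" that class. The 7 glutamatergic markers summed to 3413 and 3437 CPM (UMIs scaled to a fixed library total) in the glutamatergic neurons of the saline lanes and to 843 and 750 in parvalbumin interneurons (PV-INs). They were not particular to that class. In the saline lanes the same list held 2517 and 2306 CPM in mural cells, 2323 and 2492 CPM in endothelial cells and 1753 and 1369 CPM in fibroblasts. One class carried striatal markers, which the tissue label does not name.

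Oxidative phosphorylation passes electrons from NADH and succinate through complexes I to IV of the inner mitochondrial membrane, and complex V uses the resulting proton gradient to make ATP. Complexes I, III, IV and V join subunits encoded in the mitochondrion with subunits encoded in the nucleus, while complex II is wholly nuclear. Cortical neurons depend on this pathway for ion pumping and synaptic transmission, and fast-spiking PV-INs are known for a particularly high demand. Mitochondrial transcripts are made and kept outside the nucleus, so in sorted nuclei their UMIs come from RNA that accompanies the nuclei, whereas nuclear members are seen mostly as transcripts still in the nucleus, introns included.

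The mitochondrially and the nuclear encoded members stood on opposite sides of saline in the risperidone lanes. Summed over the 12 mitochondrial members, glutamatergic neurons held 309 and 285 CPM in saline lanes 1 and 2, against 129.6 and 115 CPM under risperidone. Both risperidone lanes were below both saline lanes, and the log2 ratio of risperidone to saline, with the lanes of a condition added, was −1.28 (95% interval −1.30 to −1.26). Intervals throughout cover counting error only, not differences between mice or preparations. The 97 nuclear members summed to 799 and 806 CPM in saline and to 947 and 953 CPM in risperidone, a log2 ratio of 0.24 (0.23 to 0.25). Here the order was the reverse, and the gap between conditions was wider than that between lanes.

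**Figure D1:**
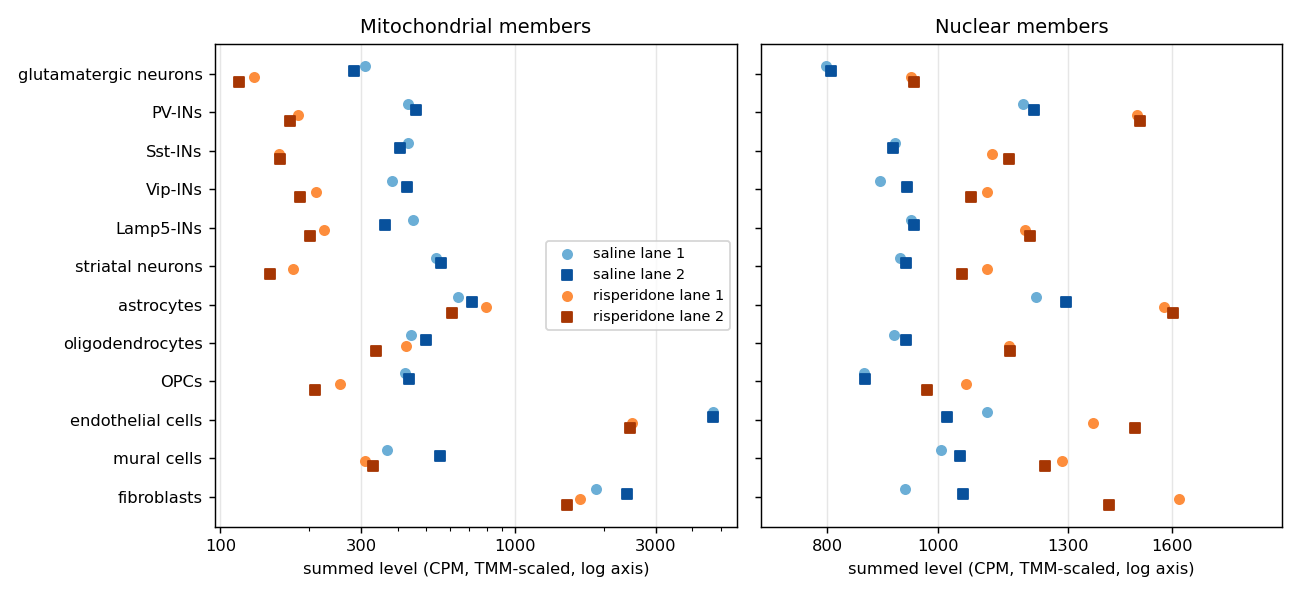
Summed level of the 12 mitochondrial members (left) and the 97 nuclear members (right) in each of 12 cell classes, in CPM after TMM scaling on a log axis, with 1 point per lane. Risperidone lanes lie below saline lanes on the left in every class except astrocytes, where the lanes overlap, and above them on the right in all 12 classes.

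The mitochondrial sum was lower in both risperidone lanes than in both saline lanes in 11 of 12 classes. As plain CPM, without TMM scaling, the oligodendrocyte lanes overlapped too, at 436 and 476 CPM in saline and 443 and 344 CPM in risperidone. Mural lanes were barely apart as plain CPM, at 364 and 526 CPM in saline and 301 and 362 CPM in risperidone. The mural log2 ratio was −0.59, and −0.19 without saline lane 2. PV-INs held 434 and 461 CPM in saline and 183 and 173 CPM in risperidone, a log2 ratio of −1.34 (−1.42 to −1.26). Somatostatin interneurons (Sst-INs) held 434 and 407 CPM against 159 and 159 CPM, a log2 ratio of −1.40 (−1.51 to −1.30). Striatal neurons held 538 and 559 CPM against 176 and 148 CPM (log2 ratio −1.78), but in male nuclei alone the ratio was −1.04 there, nearer to 0 than in male nuclei of PV-INs (−1.23) and Sst-INs (−1.18). The ratio was −1.04 in Vip-INs, −0.93 in Lamp5-INs and −0.91 in oligodendrocyte precursors (OPCs), neighbours that differed little, and −0.35 in oligodendrocytes, or −0.15 there without risperidone lane 2. Astrocytes were the exception, with 641 and 716 CPM in saline and 794 and 612 CPM in risperidone, so that the lanes overlapped and the ratio was 0.035 (−0.035 to 0.10). Endothelial cells had by far the most mitochondrial RNA of the 12 classes, at 4688 and 4701 CPM in saline and 2487 and 2447 CPM in risperidone, a log2 ratio of −0.93. Fibroblasts came next, at 1882 and 2391 CPM against 1662 and 1499 CPM. In these less numerous classes the size depended on the nuclei used, since among nuclei of at least 2000 UMIs the ratio was −1.12 in oligodendrocytes and −1.59 in endothelial cells, and in female nuclei it was −0.21 in endothelial cells and 0.12 in fibroblasts.

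The nuclear sum was higher in both risperidone lanes in 12 of 12 classes, by log2 ratios from 0.20 in striatal neurons to 0.60 in fibroblasts. In male nuclei alone the ratio was −0.16 in striatal neurons and −0.044 in mural cells. PV-INs had the highest nuclear level among neurons, with 1187 and 1213 CPM in saline and 1491 and 1503 CPM in risperidone, a log2 ratio of 0.32. Sst-INs held 918 and 913 CPM against 1115 and 1153 CPM (0.31). Astrocytes, whose mitochondrial sum overlapped, held 1219 and 1294 CPM against 1574 and 1605 CPM, a log2 ratio of 0.34. Sst-INs and striatal neurons were neighbours in saline that lay close together, the striatal lanes at 927 and 937 CPM.

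The ratio of nuclear to mitochondrial member UMIs needs no scaling between libraries. In glutamatergic neurons it was 2.59 and 2.83 in saline, against 7.31 and 8.26 in risperidone. In PV-INs it was 2.74 and 2.63 against 8.14 and 8.70. Endothelial cells showed the same order at a lower level, with 0.235 and 0.217 against 0.549 and 0.608. Astrocytes had the narrowest gap of these 4 classes, 1.90 and 1.81 against 1.98 and 2.62. Both risperidone lanes were above both saline lanes in 12 of 12 classes.

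Several technical measures moved with the condition, and their part in these results was not tested. The long nuclear RNA Malat1 was higher in the risperidone lanes of glutamatergic neurons, at 33517 and 32833 CPM against 22089 and 22438 CPM. Gm42418, a locus that overlaps ribosomal RNA, was lower, at 1153 and 1236 CPM against 5943 and 5603 CPM. Xist, the RNA that silences an X chromosome in female cells, was higher in both risperidone lanes of all 12 classes, although each pool is described as holding as many males as females. It held 287 and 294 CPM in saline and 413 and 418 CPM in risperidone in glutamatergic neurons, and 174 and 187 CPM against 612 and 634 CPM in striatal neurons. In male nuclei alone the mitochondrial ratio of glutamatergic neurons was −1.15. Summed markers of other classes were lower in both risperidone lanes of glutamatergic nuclei for 12 of 13 lists, the endothelial list overlapping at 7.13 and 6.10 CPM against 6.27 and 6.05 CPM. The sum of the 7 glutamatergic markers was lower too, at 3413 and 3437 CPM against 3012 and 3093 CPM. Of these 7 genes, 3 were lower and 3 higher in both risperidone lanes. The 4 GABAergic markers summed to 29.2 and 26.7 CPM in saline and 14.1 and 13.3 CPM in risperidone (3 of 4 lower), and the 8 oligodendrocyte markers to 215 and 209 CPM against 132 and 129 CPM (7 of 8 lower), with none of either list at 0 in all lanes. In astrocytes the 7 glutamatergic markers summed to 931 and 928 CPM against 512 and 447 CPM (4 of 7 lower, 0 higher). The log2 ratio of Gm42418 was −1.42 in astrocytes and −2.26 in glutamatergic neurons. The astrocyte value was not particular to that class, with −1.37 in oligodendrocytes, −1.28 in endothelial cells and −1.27 in fibroblasts.

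Depth differed between the conditions, so the glutamatergic sums were also taken among nuclei of like depth, as plain CPM. Nuclei of 4000 to 8000 UMIs held 281 and 265 CPM of mitochondrial members in saline and 135 and 132 CPM in risperidone. The nuclear members of the same nuclei held 759 and 763 CPM against 989 and 1007 CPM. Both orders were therefore also present within this band of depth. The median glutamatergic nucleus held 3383 and 4199.5 UMIs in saline and 5972 and 8280 in risperidone. The band therefore takes different parts of each lane, and the part of depth was not tested. The mitochondrial UMIs were few per nucleus, and 50.0% and 45.8% of glutamatergic nuclei in saline and 49.2% and 45.0% in risperidone held none. A small number of nuclei held many, since the top 1% of nuclei accounted for 19.0% and 16.7% of the mitochondrial UMIs in saline and 11.3% and 11.99% in risperidone. Each of the 12 clusters that make up the glutamatergic class had the mitochondrial sum lower and the nuclear sum higher in both risperidone lanes.

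All 12 mitochondrial members were lower in both risperidone lanes of glutamatergic neurons, but by unequal amounts. Of all 7193 genes of at least 10 CPM there, a level that 8 of the 12 reached, 47.4% also had both risperidone lanes below both saline lanes. Of 13679 genes of at least 1 CPM, which 11 of the 12 reached, 41.7% did. A gene that averaged 10 CPM or more is called here when its log2 ratio reached 0.5 in size and the lanes of the conditions did not overlap. This is a rule of size and not a test. By this rule 7.54% of the 7193 genes measured at that level in glutamatergic neurons were called lower, and 8 of 8 mitochondrial members were. The largest difference was that of mt-Atp6, the subunit of complex V that lines its proton channel, with 40.2 and 35.1 CPM in saline and 12.8 and 11.1 CPM in risperidone (log2 ratio −1.66). The catalytic subunit of complex IV, mt-Co1, had the most UMIs, at 69.3 and 61.6 CPM against 28.0 and 26.1 CPM (−1.27). Its partners mt-Co2, which receives electrons from cytochrome c, and mt-Co3 had log2 ratios of −1.41 and −1.14.

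The complex I subunits spanned a wide range. The membrane-arm subunit mt-Nd4 held 35.5 and 34.9 CPM in saline and 14.6 and 12.05 CPM in risperidone (−1.42), and mt-Nd1, next to the quinone site, had a log2 ratio of −1.40. Ratios of mt-Nd5, mt-Nd2, mt-Nd4l and mt-Nd3 were −1.24, −0.99, −0.83 and −0.79. The remaining one, mt-Nd6, is the single member on the opposite strand (chrM:13552-14070) and overlaps the end of mt-Nd5, and its log2 ratio was −1.16 (−1.52 to −0.82) on 176 and 115 UMIs, but 0.13 in male nuclei alone. The smallest difference was that of mt-Atp8, an accessory subunit of complex V, with 4.32 and 3.69 CPM against 2.91 and 2.47 CPM (−0.57). Outside the rule, mt-Cytb of complex III held 21.7 and 22.3 CPM against 9.07 and 8.22 CPM (−1.36).

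**Figure D2:**
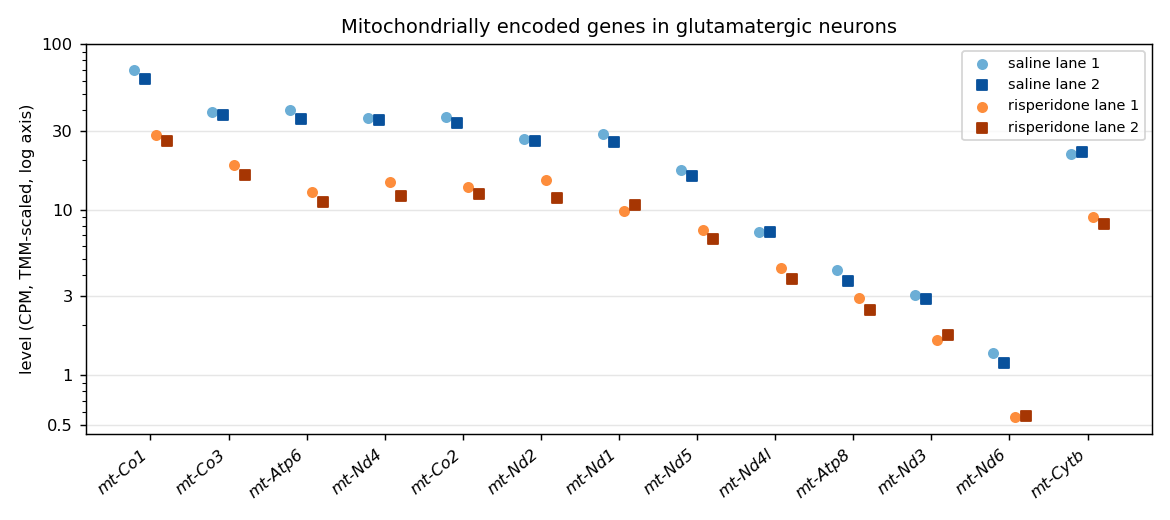
Level of each mitochondrially encoded gene in glutamatergic neurons, in CPM after TMM scaling on a log axis, with 1 point per lane and mt-Cytb, which the rule leaves out, at the right. All 13 genes have both risperidone lanes below both saline lanes, and the gap is widest at mt-Atp6 and narrowest at mt-Atp8.

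PV-INs and Sst-INs had the same 8 mitochondrial members called lower of 8 measured, where 6.8% and 7.74% of all genes were. In PV-INs the log2 ratio of mt-Atp6 was −1.70, from 51.8 and 60.1 CPM to 17.8 and 16.8 CPM, and that of mt-Co3 was −1.36. The lowest-level member, mt-Nd6, had 8 UMIs in saline and 12 in risperidone there, its lanes overlapped, and its interval was −1.29 to 1.61. In Sst-INs mt-Atp6 held 56.4 and 51.8 CPM against 12.3 and 14.8 CPM (−1.97). Elsewhere 8 of 9 were called lower in Vip-INs (background 7.52%), 7 of 8 in Lamp5-INs (9.43%), 9 of 9 in striatal neurons (9.33%), 8 of 8 in OPCs (7.3%) and 4 of 8 in oligodendrocytes (16.2%). Astrocytes had 0 of 9 called lower (13.9%) and 1 of 9, mt-Nd4l, called higher (7.99%).

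The mt-Atp8 and mt-Atp6 proteins are read from 1 shared transcript, as are mt-Nd4l and mt-Nd4, so both frames of a pair lie on the same RNA. The reading frames of each pair overlap, and the shared bases from the GRCm38 reference, on the + strand, are printed because a read within them fits both genes. The capitals mark the start codon of the downstream frame. The longer overlap is chrM:7927-7969, the shorter chrM:10167-10173.
mt-Atp8/mt-Atp6: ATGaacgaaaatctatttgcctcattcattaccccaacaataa
mt-Nd4l/mt-Nd4: ATGctaa
The share of mt-Atp8 in the UMIs of its pair was 9.70% and 9.52% in glutamatergic neurons of the saline lanes, against 18.5% and 18.2% with risperidone. With lanes added, the Clopper-Pearson intervals were 8.86% to 10.4% and 17.0% to 19.8%. PV-INs had 6.70% and 10.3% against 16.7% and 15.7%, and astrocytes, with no difference in the mitochondrial sum beyond the lanes, had 5.10% and 7.61% against 15.7% and 13.6%. The share was above saline in both risperidone lanes in 10 of 12 classes and overlapped in Lamp5-INs and OPCs. Among the 10, striatal lanes were barely apart, at 11.7% and 11.6% against 14.5% and 11.9%. With lanes added, the intervals of the conditions overlapped in striatal neurons (8.93% to 14.8% and 7.69% to 20.4%) and in PV-INs (6.33% to 11.7% and 11.4% to 21.8%). They also overlapped in oligodendrocytes, fibroblasts and mural cells, the last on 5 and 7 UMIs of mt-Atp8. The share of mt-Nd4l in its pair was 17.1% and 17.4% against 23.4% and 24.1% in glutamatergic neurons, above saline in 5 of 12 classes and overlapping in 7. These shares do not depend on the scaling between libraries.

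Turning to the nuclear members, few were individually past the size rule in glutamatergic neurons. Of 25 with a mean of at least 10 CPM, 2 were called higher (background 4.03%) and 0 lower (background 7.54%), 16 had a ratio above 0, and the median log2 ratio was 0.095 against −0.019 for all genes, and 5 of 26 were called higher when saline lane 2 was left out, where 4.83% of all genes were. At a minimum of 1 CPM, 84 of 97 were measured and 23 were called higher, or 27.4%, against 11.2% of 13679 genes, and 0 lower against 9.42%. There 70 of the 84 were above 0, and the median was 0.35 against 0.011 for all genes. Below 1 CPM were the restricted paralogues Cox4i2, Cox6a2, Cox6b2, Cox7a1, Cox8b, Cox8c and Ndufa4l2 and, with means of 0.293 to 0.860 CPM, Sdhaf1, Ndufaf3, Ndufaf8, Ndufs8, Ndufb11 and Ndufa1. Under plain CPM without TMM scaling, the split of calls over all genes in glutamatergic neurons moved from 290 higher and 542 lower to 488 higher and 326 lower, and the members above 0 at 10 CPM went from 16 to 20 of 25.

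The interneurons and glia had more members past the rule. The 10 CPM minimum is a mean over the 4 lanes, so some members reached it through their risperidone lanes alone. Examples among those called higher are Cox4i1 and Cox7c in PV-INs and Cox5a in Sst-INs, whose saline lanes lay below 10 CPM. PV-INs had 12 of 39 called higher (background 5.95%) and 0 lower (background 6.8%), with a median of 0.38 against −0.013 for all genes. Sst-INs had 6 of 28 higher (6.04%) and 1 lower, the complex I core subunit Ndufs3 (background 7.74%), with a median of 0.13 against −0.016. The Sst-INs count was 11 of 33 without saline lane 1 (7.86% of all genes), and Ndufs3 was no longer called there without risperidone lane 1. Members called higher were 6 of 29 in Vip-INs (5.66%), 7 of 34 in Lamp5-INs (8.44%), 6 of 26 in striatal neurons (6.23%), 14 of 46 in astrocytes (7.99%), 13 of 35 in oligodendrocytes (12.9%) and 4 of 27 in OPCs (6.67%). None of these members of at least 10 CPM was called lower in these 6 classes, where 7.3% to 16.2% of all genes were. The minimum of 1 CPM, here and in glutamatergic neurons, is also a mean over the 4 lanes, so members could pass it through their risperidone lanes alone. Calls near it can rest on few UMIs. In oligodendrocytes Cox6b2 was called higher with 0 and 1 UMIs in saline and 2 and 2 in risperidone. At a minimum of 1 CPM, 37 of 86 were called higher in PV-INs (background 14.2%) and 34 of 84 in Sst-INs (14.4%), and 1 was called lower in each (9.71% and 11.1%). Called lower at that minimum were also 5 of 85 in striatal neurons (12.9%), 4 of 85 in OPCs (10.0%), 2 of 87 in oligodendrocytes (16.1%), 1 of 85 in Vip-INs (10.2%), and 0 in Lamp5-INs (12.4%) and astrocytes (15.0%). Plain CPM moved the calls over all genes from 444 higher and 508 lower to 670 and 314 in PV-INs, and from 442 and 567 to 642 and 380 in Sst-INs.

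Complex I, the NADH dehydrogenase, had the most UMIs of the 5 complexes. Its 36 nuclear subunits held 312 and 313 CPM in glutamatergic neurons of saline lanes, against 352 and 356 CPM in risperidone, a log2 ratio of 0.18 (0.17 to 0.20), and 27 of the 33 measured at 1 CPM were above 0. Ndufs4, an accessory subunit needed for a stable complex, had the most UMIs of any nuclear member, at 82.6 and 84.4 CPM against 93.5 and 96.0 CPM (log2 ratio 0.18), but its gene body is 100 kb long and per kilobase its level was 0.899 CPM. The core subunit Ndufs3, which lies in the peripheral arm (chr2:90894634-90904827), went the other way, with 22.5 and 21.9 CPM against 16.4 and 15.9 CPM (−0.46). It was the lowest ratio in glutamatergic neurons among nuclear members of at least 10 CPM, was −0.50 in PV-INs and −0.54 in Sst-INs, and lay below saline in both risperidone lanes in 7 of 12 classes. The small accessory subunit Ndufv3 held 13.5 and 14.0 CPM in saline and 10.5 and 13.0 CPM in risperidone in PV-INs, a ratio of −0.21 whose interval (−0.60 to 0.19) includes 0.

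Assembly factors of complex I summed to 111 and 110 CPM against 120 and 121 CPM in glutamatergic neurons (0.13). Ndufaf7, a methyltransferase needed for assembly, was 1 of the 2 members called higher there, at 14.2 and 14.9 CPM against 21.0 and 21.0 CPM (0.52). It reached 13.5 and 11.2 CPM against 27.9 and 22.7 CPM in Sst-INs (1.03), and was above saline in 8 of 12 classes. Ndufaf4 had a ratio of 0.42 in glutamatergic neurons, and Ndufaf5, which hydroxylates a core subunit, 0.54 in Sst-INs. Ndufaf2, an assembly chaperone with the longest gene body of the members (155.909 kb), differed little, at 42.5 and 42.6 CPM against 37.5 and 39.0 CPM in glutamatergic neurons (−0.15) and −0.14 in PV-INs. Ndufaf6 stood at −0.18 in PV-INs and 0.095 in glutamatergic neurons.

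Complex II, succinate dehydrogenase, which has no mitochondrially encoded subunit, differed least among the 5 complexes in glutamatergic neurons. In Lamp5-INs the median of its members (0.34) lay above that of complex III (0.26). Its 4 subunits summed to 73.8 and 74.6 CPM in saline and 78.2 and 77.8 CPM in risperidone in glutamatergic neurons, a log2 ratio of 0.071 (0.035 to 0.11). Sdha, the flavoprotein that oxidises succinate, held 32.6 and 32.6 CPM against 37.7 and 39.0 CPM (0.24), and the membrane anchor Sdhc 14.3 and 15.0 CPM against 13.9 and 13.1 CPM (−0.13). The 4 assembly factors summed lower, at 39.6 and 41.5 CPM against 35.7 and 37.2 CPM (−0.16). Sdhaf2, which attaches the flavin to Sdha, accounted for most of that gap, with 20.9 and 21.3 CPM against 17.0 and 18.2 CPM (−0.26) and a ratio of −0.44 in PV-INs. Sdhaf3 held 20.5 and 20.9 CPM against 14.6 and 19.4 CPM in Sst-INs (−0.26, interval −0.63 to 0.12).

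By summed UMIs, complexes III, IV and V had larger ratios than I and II in all 3 of the classes set side by side here. By the median of members of at least 1 CPM, the complex I subunits lay above complex III in PV-INs (0.49 against 0.38) and Sst-INs (0.39 against 0.37). The 8 complex III genes summed to 50.8 and 50.9 CPM against 68.2 and 68.1 CPM in glutamatergic neurons (0.42), with 8 of 8 above 0. Uqcrc2, a core protein of the complex, held 23.2 and 23.6 CPM against 31.8 and 33.5 CPM (0.48), and its ratio was 0.62 in PV-INs and 0.58 in Sst-INs. The 17 complex V genes summed to 139.6 and 144 CPM against 186 and 186 CPM (0.39), and 16 of 17 were above 0. Atp5a1, the alpha subunit of the catalytic head, was the other member called higher in glutamatergic neurons, at 14.0 and 14.3 CPM against 25.9 and 24.8 CPM (0.83). Its ratio was 1.05 in PV-INs and 0.87 in Sst-INs, and both risperidone lanes were above saline in 10 of 12 classes. Atp5c1, the rotating gamma subunit, had the most UMIs of the complex, at 31.7 and 32.0 CPM against 39.6 and 40.2 CPM (0.33), and Atp5f1 of the peripheral stalk had a ratio of 0.49. The exception was Atp5l, a membrane-domain subunit, with 20.7 and 21.6 CPM against 18.3 and 18.9 CPM (−0.19) in glutamatergic neurons and overlapping lanes in PV-INs and Sst-INs.

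Complex IV, cytochrome c oxidase, had the largest nuclear ratio of the 5 complexes by summed UMIs in these 3 classes, though by the median of members complex V lay slightly above it in PV-INs (0.53 against 0.52). Its 20 genes summed to 73.0 and 71.8 CPM in saline and 106 and 106 CPM in risperidone in glutamatergic neurons (0.56, 0.52 to 0.59), with ratios of 0.61 in PV-INs and 0.57 in Sst-INs. Cox4i1, the common form of the regulatory subunit IV (chr8:120668222-120674207), held 4.64 and 4.24 CPM against 11.6 and 10.1 CPM in glutamatergic neurons (1.28). In PV-INs it held 5.44 and 7.13 CPM against 20.1 and 18.2 CPM, the largest ratio there among members of at least 10 CPM (1.59). That minimum is a mean over the 4 lanes, and Cox4i1 exceeded 10 CPM there in the risperidone lanes only. Cox7c, a small subunit whose gene is 2.089 kb long (chr13:86044816-86046904), held 4.98 and 5.64 CPM against 13.4 and 13.7 CPM in glutamatergic neurons (1.35), and 6.59 and 8.66 CPM against 18.5 and 16.1 CPM in PV-INs (1.16). Both were above saline in both risperidone lanes in 12 of 12 classes. Per kilobase its level in glutamatergic neurons was 4.91 CPM, above that of Ndufs4. Cox5a, a matrix-facing subunit, held 12.03 and 9.17 CPM against 19.4 and 17.0 CPM in PV-INs (0.78) and 5.79 and 7.81 CPM against 15.0 and 12.5 CPM in Sst-INs (0.98). Cox7a2l, which joins complexes III and IV, was the nuclear member of complex IV with the most UMIs in glutamatergic neurons and did not differ there beyond its interval, at 12.4 and 11.8 CPM against 11.7 and 11.8 CPM (−0.041, −0.13 to 0.049).

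**Figure D3:**
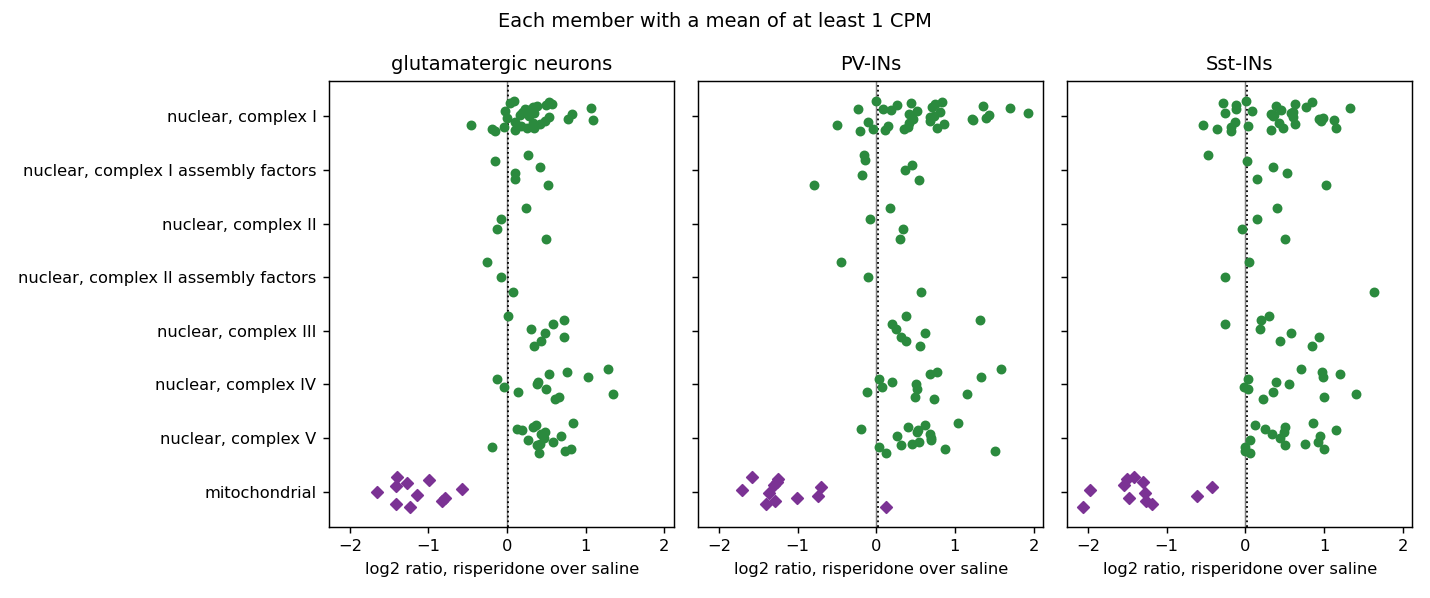
Log2 ratio of risperidone to saline for each member with a mean of at least 1 CPM, by complex, in glutamatergic neurons, PV-INs and Sst-INs, with 1 point per gene, a solid line at 0 and a dotted line at the median of all genes. Nuclear members of complexes III, IV and V lie mostly to the right of both lines, and the mitochondrial members to the left except mt-Nd6 in PV-INs at 0.12.

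**Figure D4:**
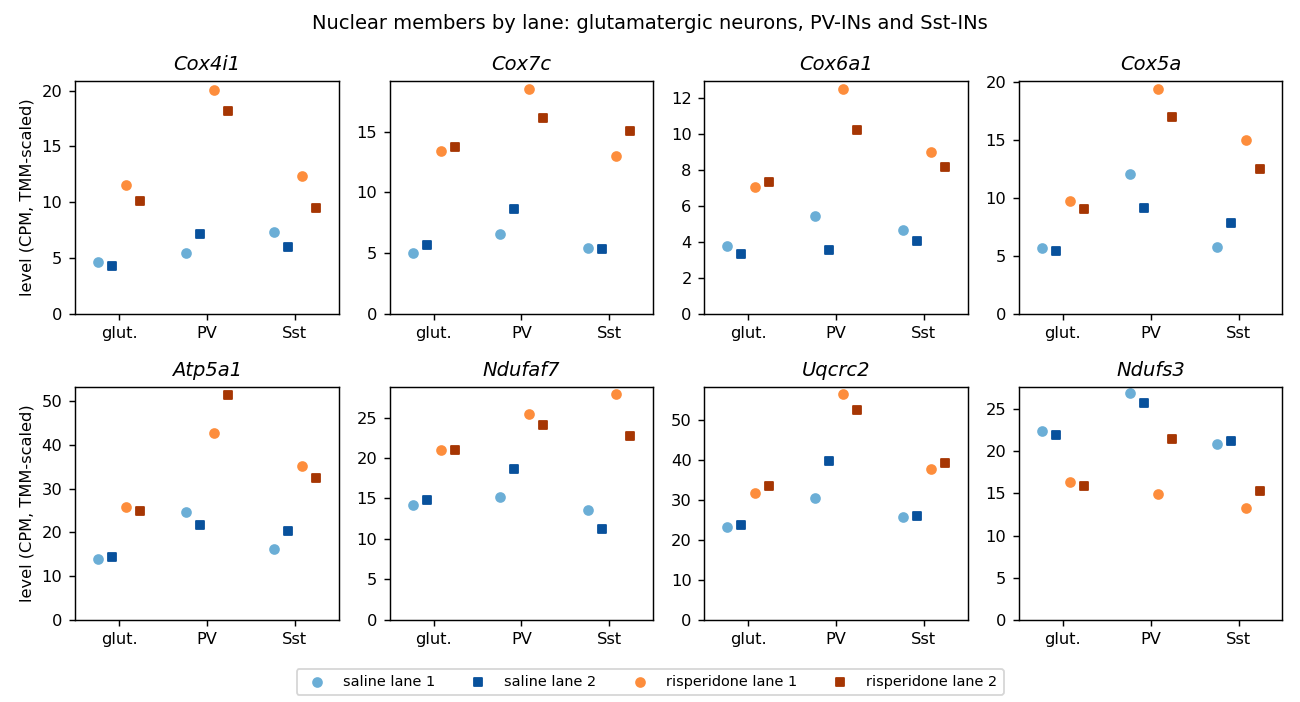
Level of 8 nuclear members by lane in glutamatergic neurons, PV-INs and Sst-INs, in CPM after TMM scaling with axes from 0. In all panels but that of Ndufs3 both risperidone lanes lie above both saline lanes in each class, and for Ndufs3 both lie below.

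Several complex IV and V subunits exist as paralogues, one form found in most tissues and another restricted. The common forms Cox6a1, Cox8a, Cox7a2 and Cox7b had ratios of 1.03, 0.66, 0.38 and 0.49 in glutamatergic neurons, and Cox6b1 −0.13. Cox6a1 held 3.77 and 3.33 CPM against 7.05 and 7.34 CPM. Ndufa4, now placed in complex IV, had a ratio of 0.61, and the 3 genes Atp5g1, Atp5g2 and Atp5g3, which encode the same mature ring subunit of complex V, had ratios of 0.43, 0.69 and 0.47. Reads of such close copies can be split or lost in counting, so single paralogue levels are less certain than the sums.

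Shares of the restricted forms differed between cell classes. Cox6a2, the heart and muscle form that is also known from PV-INs, made up 10.3% (6.12% to 16.0%) of the UMIs of the Cox6a pair in PV-INs and 0.859% (0.501% to 1.37%) in glutamatergic neurons. The PV-IN interval overlapped those of Lamp5-INs, 5.26% (1.10% to 14.6%), astrocytes, 5.33% (1.47% to 13.1%), and oligodendrocytes, 6.25% (0.766% to 20.8%). It also overlapped that of Vip-INs. Among the other classes, only glutamatergic neurons and striatal neurons (0% to 5.06%) had intervals wholly below that of PV-INs. The 17 UMIs of Cox6a2 in PV-INs were 0 and 1 in saline and 6 and 10 in risperidone. The level in saline was therefore near the limit of detection. Mural cells, the contractile cells of small vessels, carried the hypoxia-linked forms. Cox4i2 made up 41.2% (24.6% to 59.3%) of its pair there, 22.2% (10.1% to 39.2%) in endothelial cells and 0.708% in glutamatergic neurons. Ndufa4l2 made up 58.8% (32.9% to 81.6%) of its pair in mural cells, 42.1% (20.3% to 66.5%) in endothelial cells and 0.782% in glutamatergic neurons. These vascular shares rest on 14 and 10 UMIs in mural cells and on 8 UMIs of each gene in endothelial cells, those of Cox4i2 being 0 and 0 in saline and 4 and 4 in risperidone. The endothelial class also carried the 8 mural markers, at 341 and 355 CPM in saline and 608 and 589 CPM in risperidone. Mural cells held them at 2766 and 2635 CPM against 2821 and 4741 CPM. The part of mural RNA in the endothelial shares was not tested. Cox4i2 was not seen in Sst-INs, where 3 UMIs would be 0.236 CPM.

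Astrocytes carried Cox6b2, otherwise a testis form, at 24.2% (17.0% to 32.7%) of its pair, against 0.658% in glutamatergic neurons. The share was 36.8% (16.3% to 61.6%) in mural cells on 7 UMIs, 27.8% (9.69% to 53.5%) in fibroblasts on 5, 13.5% in oligodendrocytes on 5 and 12.7% in OPCs on 7. The 8 astrocyte markers summed to 2348 and 2511 CPM in saline and 1863 and 3639 CPM in risperidone in mural cells. In fibroblasts they held 1979 and 861 CPM against 1068 and 1141 CPM, and in astrocytes 14470 and 15043 CPM against 15288 and 16265 CPM. The part of astrocyte RNA in the mural and fibroblast shares was not tested. In astrocytes Cox6b2 had 1 and 3 UMIs in saline, against 12 and 14 in risperidone. Cox7b2 made up 42.7% (41.3% to 44.1%) of its pair in glutamatergic neurons and 59.3% (51.8% to 66.5%) in Lamp5-INs. Its gene body is 105 kb long against 6.75 kb for Cox7b, and intronic reads were counted, so this share is not comparable with those of the other pairs. Per kilobase the levels in glutamatergic neurons were 0.0566 CPM for Cox7b2 and 1.19 CPM for Cox7b. The log2 ratio of Cox7b2 was 0.14 in glutamatergic neurons, while in Lamp5-INs it held 12.4 and 8.61 CPM in saline and 15.7 and 19.5 CPM in risperidone (0.79, 0.17 to 1.44). Cox8b had 4 UMIs and Cox7a1 48 UMIs over the 4 lanes of glutamatergic neurons.

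Nuclear members are short genes, and ratios varied with gene length over all genes. The median gene body of the 97 was 7.38 kb against 12.3 kb for all genes. In glutamatergic neurons at 1 CPM or more, all genes under 5 kb had a median log2 ratio of 0.29, those of 10 to 20 kb 0.065 and those over 40 kb −0.085. The members lay above the median of their length class in each class of length there, at 0.48 for 20 members under 5 kb, 0.43 against 0.17 for 33 members of 5 to 10 kb, 0.28 for 15 of 10 to 20 kb, 0.095 against 0.021 for 12 of 20 to 40 kb and 0.032 for the 4 over 40 kb. PV-INs had 0.68 against 0.32 under 5 kb and Sst-INs 0.70 against 0.33. The 4 longest members stood at −0.11 against −0.075 in PV-INs, the one class of length of the 15 in these 3 cell classes where members were not above all genes. The part of gene length in the nuclear ratios was not tested.

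**Figure D5:**
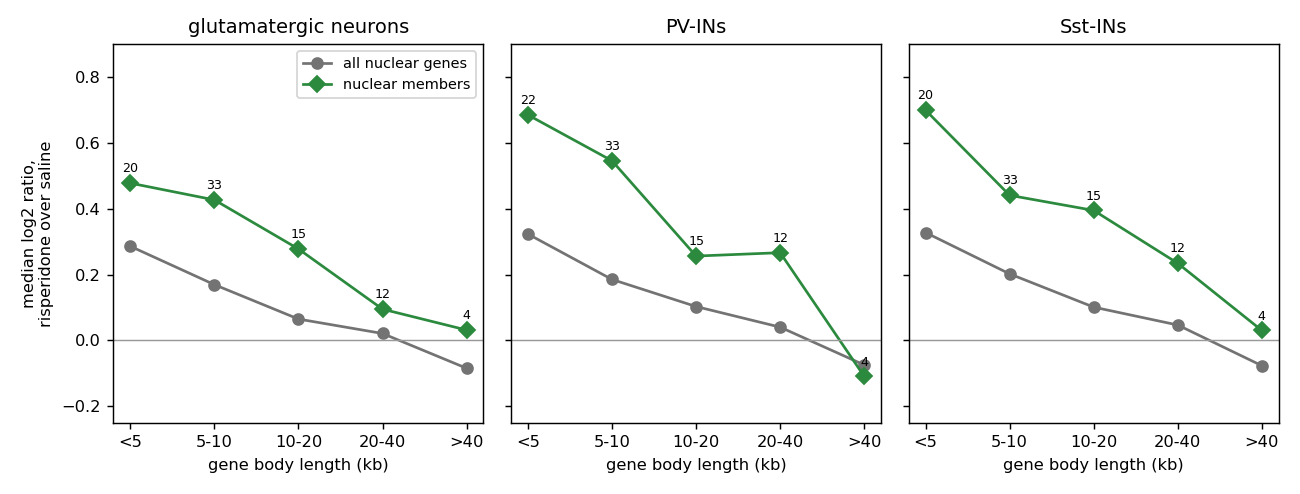
Median log2 ratio of risperidone to saline by gene body length in kilobases, for all nuclear genes and for the nuclear members with a mean of at least 1 CPM, with the number of members at each point. The line for all genes descends with length in the 3 cell classes, as does that for the members, from 0.48 to 0.032 in glutamatergic neurons, except for a step from 0.26 to 0.27 between 10 to 20 kb and 20 to 40 kb in PV-INs.

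Promoters of nuclear members are known to share sites for the factors NRF-1, YY1 and the ETS family, which coordinate them with mitochondrial genes. Windows of 300 bases, from 250 before to 50 after the start, were matched in RefSeq (GRCm38.p6) for 79 of the 97 nuclear members and searched on both strands. The NRF-1 core GCGCATGC was found in 12 members, 15.2%, against 3.05% of all 27025 genes with a promoter window. Those genes were taken whether or not they were measured in these nuclei. The YY1 site AAGATGGC was in 12.7% against 3.19%, the ETS core CCGGAAG in 27.8% against 9.93%, and the GC box GGGCGG in 48.1% against 38.2%. The TATA box TATAAA was in 11.4% against 15.7%. None of the 5 motifs contains another, though the ETS core and the YY1 site can share the letters AAG. A match describes letters and is not a measured binding site.

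The 12 members with the NRF-1 core had log2 ratios from −0.19 to 1.07 in glutamatergic neurons, with a median of 0.40, and the 58 measured members without it had a median of 0.27. The YY1 site went the same way (0.39 against 0.28), and the ETS core (0.27 against 0.32), the GC box (0.27 against 0.33) and the TATA box (0.18 against 0.32) the other way. The windows below show the core in the 2 such members with the highest and the 2 with the lowest ratios, to show that members with the same core stood on both sides of 0. The capitals mark 1 match of the core in each, along the gene in Cox6a1 and as its reverse complement GCATGCGC in the others. In Cox6a1 the letters that follow also complete the reverse complement, overlapping the capitals. Ndufa6 (1.07, chr15:82354317-82354424, − strand) holds it 83 bases before the start, Cox6a1 (1.03, chr5:115349063-115349170, − strand) 162 bases, Sdhb (−0.082, chr4:140961167-140961274, + strand) 54 bases and Atp5l (−0.19, chr9:44920925-44920992, − strand) 240 bases.
Ndufa6: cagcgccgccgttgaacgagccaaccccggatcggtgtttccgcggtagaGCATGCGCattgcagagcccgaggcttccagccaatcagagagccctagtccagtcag
Cox6a1: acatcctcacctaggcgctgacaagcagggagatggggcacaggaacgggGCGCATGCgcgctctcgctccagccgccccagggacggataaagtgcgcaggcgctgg
Sdhb: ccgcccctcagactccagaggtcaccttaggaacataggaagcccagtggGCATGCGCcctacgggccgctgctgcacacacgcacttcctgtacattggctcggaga
Atp5l: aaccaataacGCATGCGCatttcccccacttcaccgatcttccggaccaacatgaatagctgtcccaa
Atp5l also carries the ETS core and the TATA box and Cox6a1 the ETS core and the GC box, so the motif groups share members.

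Other genes of the pathway were counted from fixed lists at 10 CPM or more in glutamatergic neurons, where the background was 4.03% higher and 7.54% lower. Of 14 measured genes of the TCA cycle and pyruvate dehydrogenase, which supply the electrons, 11 were above 0, 2 were called higher (Idh3b and Pdhb) and 0 lower, with a median of 0.13. Among 10 import factors, porins and carriers 9 were above 0 and 3 were called higher, the ADP/ATP carrier Slc25a4, the phosphate carrier Slc25a3 and the translocase Timm23, with a median of 0.24. For glycolysis the values depended on the minimum, with 3 of 9 above 0 and a median of −0.11 at 10 CPM, and 9 of 16 above 0 and a median of 0.16 at 1 CPM, where 3 were called higher (background 11.2%). Ldhb, which converts lactate to pyruvate, was its 1 gene called higher at 10 CPM. The complex V inhibitor Atpif1 was called higher and 0 of the 4 measured assembly factors of complex IV were. At 1 CPM, 4 of 17 assembly factors of complex IV were called higher and 14 were above 0, with a median of 0.32. Of 12 genes for mitochondrial DNA expression and biogenesis, 7 were above 0. The 2 called higher were the RNA helicase Supv3l1 and the exonuclease Pnpt1, which together degrade mitochondrial RNA. PV-INs had 15 of 15 TCA cycle genes above 0 with 4 called higher (background 5.95%) and a median of 0.36, and 7 of 11 for glycolysis with 3 called higher and a median of 0.086.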

How the data were processed

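The authors counted unique molecular identifiers per gene and nucleus with Cell Ranger 8.0.1 on mm10, intronic reads included, and deposited the filtered count matrices without normalization. A nucleus was kept when it had 500 genes or more and no more than 5% of its UMIs were mitochondrial, and 2184 to 3596 nuclei per lane that resembled simulated doublets were left out. Clusters came from 2000 variable genes without the members, 30 principal components and Louvain clustering at resolution 0.5, and classes were named from fixed markers, with thresholds set after marker levels were seen. UMIs were summed per class and lane and scaled as CPM with TMM factors (edgeR 4.0.16, R 4.3.3). The log2 ratio used lanes added, with an exact conditional binomial interval at 95% confidence. Counts of calls were made for classes with at least 300 nuclei in each lane. No test between conditions was made, since each was 1 pool. The calculation of the size rule was checked on simulated counts. Gene lengths are those of GENCODE vM21 (GRCm38), where 99.8% of identifiers were found.

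The genes named are every mitochondrial member, the fixed paralogues, the 5 largest increases and decreases among separated members of at least 10 CPM in 3 classes, and the member with the most CPM in each complex. One gene that this rule names is not reported here. Genes from other lists are named where called, as are those with the extreme ratios among NRF-1 promoters, Cox8c, Gm42418 and the genes on opposite sides of saline in different classes, which were chosen after their values were seen. The members and lists were chosen with earlier results of these data known. Alternatives were plain CPM, DESeq2 1.42.0 size factors, a 2000 UMI floor, doublets kept, no mitochondrial filter, resolution 1.0, each sex, other minimums, and each lane left out.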

Additional observations from a re-analysis of the deposited data

Results flagged for a closer look

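Some members drew attention because every risperidone lane lay on one side of saline in one class and on the other side in another. None of these differences between classes was tested, and the members were the extremes among 12 classes. The mitochondrial genes differed between astrocytes and neurons. The complex IV subunit mt-Co3 had a log2 ratio of 0.23 in astrocytes and −1.36 in PV-INs, and mt-Nd4l 0.54 in astrocytes and −1.54 in striatal neurons. Among nuclear members, Cox7a2l stood at 0.65 in oligodendrocytes and −0.041 in glutamatergic neurons, where its interval (−0.13 to 0.049) includes 0, and the complex II anchor Sdhc at 0.34 in PV-INs and −0.42 in oligodendrocytes. Sdhaf3, a complex II assembly factor, stood at 0.38 in oligodendrocytes and −0.47 in striatal neurons. The remaining complex I members had small ratios of either sign, with Ndufs4 at 0.24 in OPCs and −0.13 in Vip-INs, Ndufaf2 at 0.11 in Lamp5-INs and −0.38 in oligodendrocytes, and Ndufaf6 at 0.16 in astrocytes and −0.18 in PV-INs.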

How the results depend on the processing

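Leaving out the 1% of nuclei with the most mitochondrial UMIs, which was chosen after seeing the data, and the other alternatives reversed no sum in glutamatergic neurons, PV-INs or Sst-INs. The mitochondrial log2 ratio of glutamatergic neurons was −1.15 in male nuclei and −1.36 to −1.19 with 1 lane left out. In PV-INs it was −1.26 under plain CPM, −1.42 in female and −1.23 in male nuclei, and −1.26 without the top 1%. In Sst-INs it was −1.33 under plain CPM, −1.18 in male nuclei and −1.47 to −1.36 with 1 lane left out. The nuclear ratio of glutamatergic neurons was 0.33 under plain CPM, 0.28 in male nuclei, 0.28 without assembly factors and 0.24 to 0.25 with 1 lane left out. In PV-INs it was 0.40 under plain CPM, 0.30 from 2000 UMIs up, 0.30 with doublets kept, 0.38 in female and 0.37 in male nuclei, 0.38 without assembly factors and 0.30 to 0.33 with 1 lane left out. In Sst-INs it was 0.39 under plain CPM, 0.28 with doublets kept and 0.26 in male nuclei.

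Nuclear members called higher in glutamatergic neurons numbered 5 under plain CPM, 23 from 1 CPM up, 30 with no minimum and 2 to 5 with 1 lane left out, the 5 without saline lane 2. Over all genes the shares called higher were 6.78%, 11.2%, 16.5% and 3.57% to 4.83%, against 4.03% as reported above. The corresponding counts were 37 from 1 CPM up, 42 with no minimum and 10 to 18 with 1 lane left out in PV-INs, the 18 without saline lane 2, and 34, 36 and 4 to 11 in Sst-INs, the 11 without saline lane 1. All genes there had 14.2%, 14.7% and 5.68% to 8.56% in PV-INs and 14.4%, 14.1% and 6.13% to 7.88% in Sst-INs. Called lower in glutamatergic neurons was 1 in female nuclei and 1 with no minimum. In PV-INs it was 1 each under DESeq2 size factors, from 2000 UMIs up, at resolution 1.0, without the top 1%, from 1 CPM up and with no minimum, 3 in female nuclei and 0 to 2 with 1 lane left out, the 2 without risperidone lane 2. In Sst-INs it was 0 under plain CPM, 2 in female nuclei and 0 to 2 with 1 lane left out, the 0 and the 2 without risperidone lane 1 and 2. Shares of all genes called lower ranged over the settings from 4.53% to 14.4%, 4.20% to 10.9% and 5.19% to 11.2% in the 3 classes. The cause of these differences was not tested, apart from the minimums, which change the genes measured. Of 1904 alternative values of named genes, 215 moved by more than the spread between lanes, 80 of them in male nuclei, and 81 had the other sign. Across the other classes the sign of the mitochondrial sum held under all 13 settings except in astrocytes (7 below 0 and 6 above) and fibroblasts (0.12 in female nuclei), and that of the nuclear sum except in male nuclei of striatal neurons (−0.16) and mural cells (−0.044).

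No paired analysis was possible because lane numbers mark technical runs of 1 pool per condition and no test was made. Differences between mice cannot be seen in 1 pool, and pool, preparation, depth, the DMSO of the drug solution and treatment cannot be told apart. The authors describe no DMSO for the saline injections. In these sums fewer transcripts per nucleus and a different mix of nuclei within a class cannot be told apart. Levels in the vascular classes and of the restricted paralogues rest on few UMIs.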

Other observations

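Genes of mitochondrial DNA expression and biogenesis had values of either sign in glutamatergic neurons. The coactivator Ppargc1b held 111 and 112 CPM in saline and 81.1 and 82.7 CPM in risperidone (log2 ratio −0.44), while its relative Ppargc1a, a regulator of mitochondrial gene programmes, held 79.1 and 81.3 CPM against 78.9 and 83.8 CPM (0.023). The mitochondrial RNA polymerase Polrmt held 6.09 and 6.45 CPM against 4.80 and 4.53 CPM (−0.44), and Tfam, which packages mitochondrial DNA and starts its transcription, 3.93 and 3.66 CPM against 5.04 and 5.16 CPM (0.43). These 4 genes were chosen after their values were seen.

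Relative to the 12 members together, the share of mt-Atp6 in glutamatergic neurons was 13.0% and 12.3% in saline and 9.87% and 9.60% in risperidone, and that of mt-Nd2, another membrane-arm subunit of complex I, was 8.62% and 9.13% against 11.6% and 10.2%. The share of mt-Co1 overlapped, at 22.4% and 21.6% against 21.6% and 22.6%. The mix of mitochondrial transcripts thus differed between the lanes for some genes and not detectably for others.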
